A study of Mus musculus with 10 samples.

Results

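The subject is how far the effect of blocking lactate dehydrogenase (LDH) on the RNA of activated mouse CD8+ T cells depends on the cytokine the cells are kept in. It was measured as a difference of differences: the change with the inhibitor in IL-21, minus the change with the inhibitor in IL-2. The comparison used 8 of the 10 libraries of the series, 2 in each of 4 groups, and the other 2 libraries are cells without cytokine. CD8+ T cells were isolated from spleens of C57BL/6N mice and activated for 48 h with anti-CD3 (2 µg/ml) and anti-CD28 (2 µg/ml). The activated cells were pooled, washed and kept for 48 h in one of the following media: mouse IL-21 (100 ng/ml) with the inhibitor NCI-737 (LDHi, 1 µM), IL-21 alone, human IL-2 (100 IU/ml) with LDHi, IL-2 alone, or no cytokine. The inhibitor was present from activation onward and was added again at replating, so its effect on activation and its effect on the response to the cytokine cannot be told apart. The inhibitor was not given to cells lacking cytokine.

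IL-2 and IL-21 act through receptors that share the common gamma chain. IL-2 signals mainly through STAT5 and drives division, glycolysis and effector function, whereas IL-21 signals mainly through STAT3 and is known for preserving features of less differentiated, longer-lived cells. LDH turns pyruvate into lactate and regenerates the NAD+ that glycolysis consumes. Activated T cells rely on this step while they divide and take up effector functions.

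Poly(A) RNA (500 ng per library) was sequenced to a depth, as the authors give it, of 45138204 to 62848913 reads per library. One transcript was kept per gene symbol, the one with the most reads over all libraries, and 14357 genes passed the filter on low counts. Levels below are the authors' RPKM (reads scaled to transcript length and library total), and changes are log2 fold changes ± SE from edgeR's quasi-likelihood test, with n = 2 libraries per group. A gene is said to be called where its p value, adjusted by Benjamini-Hochberg over all genes tested, lies below 0.05. All p values rest on how far these pairs of libraries differ. That difference may be a technical one, because no label ties a replicate to its own animal or culture and the activated cells had been pooled. The IL-21 pair differed most, with an SD of the log2 difference between its libraries of 0.76, against 0.302 to 0.488 in the other groups. The label of CD8+ T cells fitted the marker genes: Cd8b1, a chain of the CD8 co-receptor, measured 353 and 344 RPKM in IL-21 + LDHi, 446 and 344 in IL-21, with 471 and 509 in IL-2 + LDHi and 250 and 282 in IL-2. Markers of basophils, mast cells, neutrophils, platelets and macrophages were also present, most in the libraries without cytokine and next in those with IL-21, and their levels are given beside the genes they move with. In such bulk RNA, fewer cells of a type and less RNA per cell cannot be told apart.

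The inhibitor changed many genes in both cytokines, and most genes it changed in both moved the same way, but the size of the change often depended on the cytokine. The inhibitor's effect was called for 4500 genes in IL-21, which is 31.3% of the genes tested, with 1588 higher (11.1%) and 2912 lower (20.3%). In IL-2 it was called for 5657 genes (39.4%), with 2557 higher (17.8%) and 3100 lower (21.6%). Leaving out a library of IL-21 + LDHi left 2604 and 2453 calls in IL-21, and leaving out one of IL-2 + LDHi (3113 and 3140) or of IL-2 (3379 and 3654) left fewer in IL-2. The difference between these effects, the interaction, was called for 3122 genes (21.7%): 1145 were higher (7.98%) and 1977 lower (13.8%). A higher interaction means that the change in IL-21 lay above that in IL-2. Of the interactions called, 703 of the higher and 1484 of the lower were at least 2-fold. The count depended on the libraries: without IL-21 replicate 1 there were 5201 calls. Leaving out either library of IL-21 + LDHi (1949 and 1907), of IL-2 + LDHi (1742 and 1803) or of IL-2 (1914 and 1956) left fewer. The threshold falls in a dense range, with 281 genes at an adjusted p of 0.04 to 0.05 (median absolute interaction 0.81) and 300 genes at 0.05 to 0.06 (0.78).

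Sorted by direction, 2496 genes were called in both cytokines, which is 55.5% of the calls in IL-21 and 44.1% of those in IL-2. Of these, 2135 moved the same way (14.9% of the genes tested), 783 of them higher and 1352 lower, and 361 moved in opposite directions (2.51%). Among the 361, 120 rose with the inhibitor in IL-21 but fell with it in IL-2, and 241 did the reverse. These counts depend on single libraries: the opposite class held 783 genes without IL-21 replicate 1, 462 without IL-21 replicate 2, and 165 to 198 without any 1 library of IL-21 + LDHi, IL-2 + LDHi or IL-2. A further 952 genes (6.63%) were called in IL-21 and not in IL-2 with the interaction called, 193 higher and 759 lower, and 1205 genes (8.39%) in IL-2 and not in IL-21, 542 higher and 663 lower. The count in IL-21 only was 1815 without IL-21 replicate 1, and 606 and 609 without IL-21 + LDHi replicates 1 and 2. The count in IL-2 only was 616 and 652 without IL-2 replicates 1 and 2, and leaving out either IL-2 + LDHi library gave 521 and 571. The same-direction count was 1342 without IL-2 replicate 1, 1285 and 1207 without either IL-21 + LDHi library, and 1225 and 1222 without either IL-2 + LDHi library. For 3008 genes called in 1 cytokine the interaction was not called, so a difference between cytokines was not shown. The opposite class lower in IL-21 held few abundant genes: 31.1% of its members reached a mean of 5 RPKM in the highest of the 4 groups, against 65% of the opposite class higher in IL-21. Since the classes were cut from the same tests as the interaction, they are a description, and their members' interactions support nothing further. Across genes, which are not independent replicates, the effect in IL-21 and the effect in IL-2 correlated with r of 0.327 over 14357 genes and r of 0.456 over the 8648 genes that reached 5 RPKM.

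**Figure D1:**
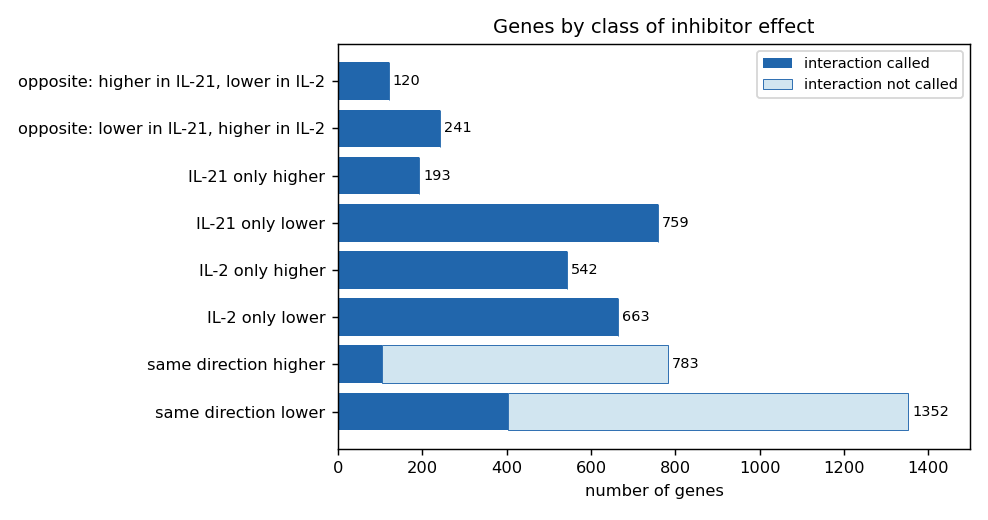
Number of genes (horizontal axis) in each class of inhibitor effect, split into genes with the interaction called (dark) and not called (light). The opposite classes hold 120 and 241 genes, and the classes called in both cytokines with 1 direction hold 783 and 1352, of which 105 and 404 had a called interaction.

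**Figure D2:**
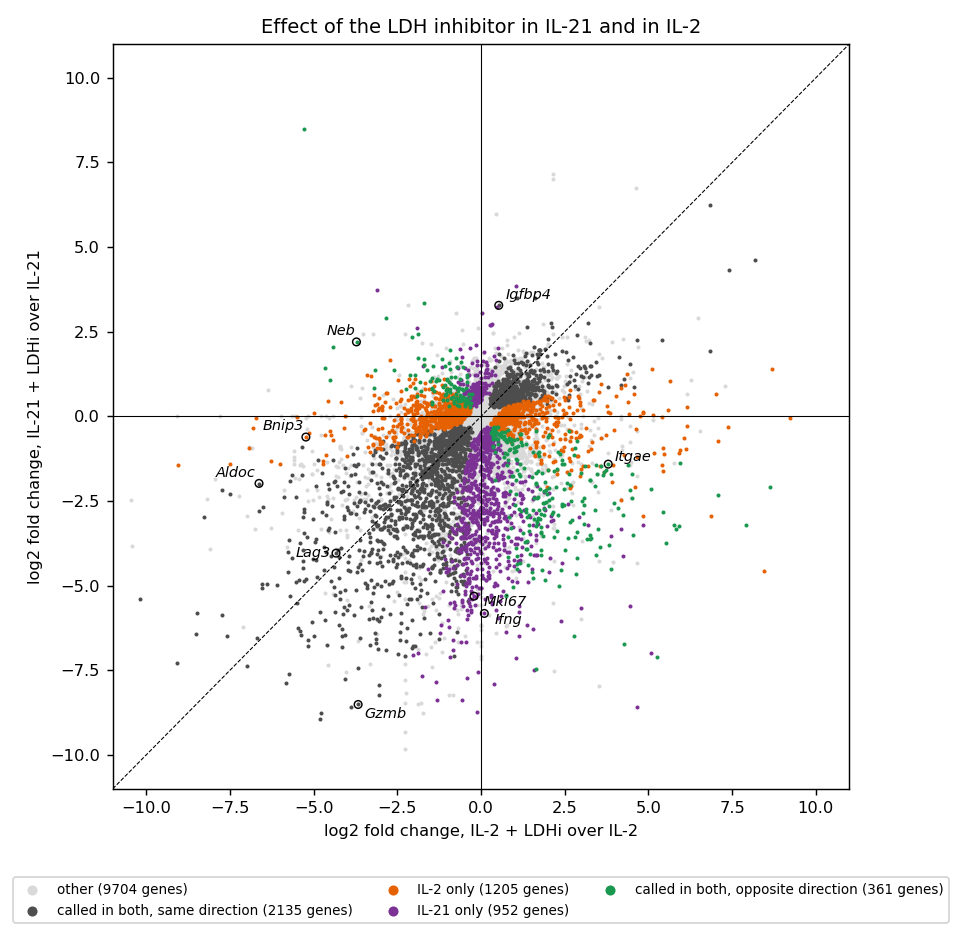
Each point is 1 of 14357 genes, with the log2 fold change of IL-21 + LDHi over IL-21 on the vertical axis and of IL-2 + LDHi over IL-2 on the horizontal axis. Colours give the class, and the dashed line marks equal effects. The 361 opposite genes lie above left and below right of the centre, and Mki67, Ifng and Gzmb lie far below the dashed line while Bnip3 and Aldoc lie above it.

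Genes that rose with the inhibitor in IL-21 and fell with it in IL-2 included enzymes of collagen, glycogen, serine and succinate metabolism. P4ha1 (chromosome 10, 59323197 to 59373304, mm10), a subunit of the enzyme that hydroxylates proline in collagen and a target of the hypoxia factor HIF-1, measured 16.9 and 17.8 RPKM in IL-21 + LDHi and 8.22 and 6.30 in IL-21. It measured 7.41 and 6.65 RPKM in IL-2 + LDHi and 33.3 and 26.4 in IL-2. The libraries with the inhibitor were all higher than those without it in IL-21 and all lower in IL-2. Pairs of libraries failed to overlap for 56.9% of all genes in IL-21 and for 82.3% in IL-2. P4ha1 rose by 1.23 ± 0.14 in IL-21 and fell by 2.13 ± 0.15 in IL-2, an interaction of 3.36 ± 0.21 (adjusted p = 1.37e-05). Its level in IL-21 + LDHi was above that in IL-2 + LDHi by 1.48, whereas in IL-21 it was below that in IL-2 by 1.88 (adjusted p = 8.05e-05 and 2.47e-05). Gbe1, the glycogen branching enzyme, rose by 0.60 ± 0.17 in IL-21 and fell by 1.91 ± 0.17 in IL-2. Shmt2, the mitochondrial enzyme that takes one-carbon units from serine, rose by 0.32 ± 0.10 and fell by 0.96 ± 0.10 in these pairs. Suclg2, a subunit of the GTP-forming succinyl-CoA ligase, rose by 0.66 ± 0.11 and fell by 0.37 ± 0.11.

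Among members that reached 5 RPKM, the largest interactions were those of Neb, Rgag4, Acvrl1 and Prelid2. Neb, which encodes the muscle filament protein nebulin, measured 3.59 and 4.15 RPKM in IL-21 + LDHi, 0.768 and 0.862 in IL-21, with 0.529 and 0.471 in IL-2 + LDHi, and 6.39 in both IL-2 libraries. It rose by 2.2 ± 0.16 in IL-21 and fell by 3.72 ± 0.17 in IL-2, which gave an interaction of 5.91 ± 0.23 (adjusted p = 5.39e-06). Prelid2 measured 28.3 and 29.6 RPKM in IL-21 + LDHi, 15.4 and 15.7 in IL-21, with 6.86 and 8.34 in IL-2 + LDHi and 71.1 and 63.9 in IL-2. Thus Prelid2 was highest in IL-2 without the inhibitor and lowest in IL-2 with it, and the IL-21 pair lay between (interaction 4.04 ± 0.22, adjusted p = 9.11e-06). Acvrl1, a type I receptor of the TGF-beta family, had an interaction of 4.55 ± 0.40, and Rgag4 one of 5.04 ± 0.33.

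Genes that fell with the inhibitor in IL-21 and rose with it in IL-2 included adhesion molecules, receptors and the early response factors Egr2 and Egr3. Itgae (chromosome 11, 73090505 to 73147449), the alpha E integrin CD103 that binds E-cadherin on epithelium, measured 2.02 and 2.13 RPKM in IL-21 + LDHi and 6.68 and 4.28 in IL-21. It measured 21.8 and 20.8 RPKM in IL-2 + LDHi and 1.44 and 1.53 in IL-2. The pairs did not overlap in either cytokine, and the order of the cytokines was reversed by the inhibitor. Itgae fell by 1.41 ± 0.17 in IL-21 and rose by 3.8 ± 0.18 in IL-2, an interaction of -5.21 ± 0.25 (adjusted p = 6e-06). Itga1, the collagen-binding integrin CD49a, had an interaction of -5.04 ± 0.39. Its levels were 0.0715 and 0.0433 RPKM in IL-21 + LDHi, 0.62 and 0.465 in IL-21, with 1.35 and 1.01 in IL-2 + LDHi and 0.36 and 0.308 in IL-2. S100a4, a calcium-binding protein of motile and effector cells, measured 1.14 and 1.56 RPKM in IL-21 + LDHi, 51.3 and 23.3 in IL-21, with 124 and 126 in IL-2 + LDHi and 44.1 and 39.1 in IL-2. The inhibitor thus left S100a4 low in IL-21 and high in IL-2, while the pairs without it overlapped (interaction -6.32 ± 0.39, adjusted p = 1.37e-05).

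Egr2 and Egr3, transcription factors induced by antigen receptor signals, had the same pattern, but their list as a whole did not. Of 20 immediate early and NFAT target genes, 1 rose and 9 fell in IL-21, and 2 rose and 12 fell in IL-2. Among the 20, 5 had a higher and 8 a lower interaction (median -0.06). With a filter of 5 RPKM, 12 were left, with 5 higher and 1 lower. Egr3 measured 0.173 and 0.127 RPKM in IL-21 + LDHi, 3.53 and 3.24 in IL-21, with 1.99 and 2.01 in IL-2 + LDHi and 0.327 and 0.409 in IL-2. It fell by 4.52 ± 0.31 in IL-21 and rose by 2.39 ± 0.28 in IL-2, and Egr2 fell by 3.89 ± 0.26 and rose by 1.04 ± 0.23. Xcl1, a chemokine that draws cross-presenting dendritic cells, measured 0.365 and 1.03 RPKM in IL-21 + LDHi, 15.4 and 13.3 in IL-21, with 29.2 and 28.2 in IL-2 + LDHi and 6.17 and 14.9 in IL-2. Cd226, the activating receptor DNAM-1, fell by 0.91 ± 0.13 in IL-21 and rose by 0.37 ± 0.13 in IL-2. Klra6 and Klra19, killer lectin-like receptors, gave almost the same numbers (interactions of -6.06 ± 0.27 and -6.02 ± 0.27). Over the 10 libraries Klra6 held 2775 and Klra19 2729 reads, so reads of these near-identical genes may be shared and the values may be those of 1 gene.

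Markers of other cell types were among the genes of this pattern, and they were high in the libraries without cytokine as well. Of 14 macrophage and dendritic markers tested, 9 had a lower interaction and 0 a higher one, and 5 were in the opposite class. Lyz2, the lysozyme of myeloid cells, measured 2.06 and 3.81 RPKM in IL-21 + LDHi, 33.4 and 35.8 in IL-21, with 6.13 and 11.2 in IL-2 + LDHi and 1.66 and 1.11 in IL-2, against 113 and 149 without cytokine. Pf4, a platelet chemokine, measured 13.8 and 15.6, 107 and 87.9, 10.2 and 11.4, and 2.84 and 4.27 RPKM in the same order of groups, against 201 and 257 without cytokine. The libraries without cytokine were the highest of the 5 groups for 66.8% of the 241 genes of the class, against 21.5% of all genes tested. The summed level of the macrophage and dendritic list was 105 to 108 RPKM in IL-21 + LDHi, 147 to 166 in IL-21, 84.3 to 93.0 in IL-2 + LDHi and 64.7 to 73.4 in IL-2. The part these cells have in the class was not tested.

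The most uniform difference concerned division. Of 25 genes of the G2 and M phases, all 25 fell with the inhibitor in IL-21 and 15 fell in IL-2, and the interaction was lower for 25 of 25. The median change was -4.61 in IL-21 and -0.54 in IL-2, with a median interaction of -3.79, against -0.08 over all genes. Mki67 (chromosome 7, 135689784 to 135716450), which encodes the proliferation marker Ki-67, measured 1.24 and 1.39 RPKM in IL-21 + LDHi, 50.4 and 51.2 in IL-21, with 116 and 117 in IL-2 + LDHi and 138 and 124 in IL-2. Both IL-21 + LDHi libraries were far below all others. Mki67 fell by 5.31 ± 0.17 in IL-21, against a change of -0.21 ± 0.14 in IL-2 that was not called (adjusted p = 0.251). Ccna2, cyclin A2, had an interaction of -5.13 ± 0.24 (adjusted p = 6e-06), Ccnb1, cyclin B1, one of -4.11 ± 0.19, and Kif11, a mitotic spindle motor, one of -3.79 ± 0.17. The count of lower G2 and M genes was 24 or 25 under each of 19 other settings of the fit, each leave-out included.

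This difference is one of proportion. The summed level of the 25 genes was 31.3 ± 1.35 RPKM in IL-21 + LDHi and 449 ± 81.5 in IL-21, so 6.98% was left with the inhibitor. It was 1070 ± 38.9 RPKM in IL-2 + LDHi and 1510 ± 116 in IL-2 (SD, n = 2 libraries each), so 71.3% was left. In RPKM the sum fell by 417 in IL-21 and fell by 433 in IL-2, a difference of differences of 15.3, and for 11 of the 25 genes its sign was the opposite of that on the log2 scale. Among all 3122 interactions called, the sign of the difference of differences of mean RPKM was the opposite for 222. Of 27 S phase genes, 15 had a lower and 1 a higher interaction. Rrm2, a subunit of ribonucleotide reductase, measured 1.22 and 0.979 RPKM in IL-21 + LDHi, 34.7 and 21.4 in IL-21, with 72.7 and 75.3 in IL-2 + LDHi and 80 and 60.9 in IL-2 (interaction -4.71 ± 0.27, adjusted p = 1.09e-05). Cdc6, which loads the replicative helicase, had an interaction of -4.33 ± 0.26. The sum over the S phase list was 63.1% of its IL-21 level with the inhibitor and 96.7% of its IL-2 level.

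Many promoters of the division genes carry letters known from such genes. TTTGAA, the letters of the cell cycle homology region bound by repressor complexes in resting cells, was found on either strand in 16 of 21 G2 and M promoters (76.2%), against 1290 of the 10500 promoters available for the genes tested (12.3%). CCAAT was found in 18 of 21 (85.7%), against 38.8%. It was not particular to this list: 14 of 15 cholesterol synthesis promoters (93.3%) and 13 of 21 S phase promoters (61.9%) held it. These are 300 bases, from 250 before to 50 after a start site of the gene on GRCm38.p6, whose coordinates are those of mm10. For Mki67 and P4ha1 that site lies within the gene limits printed here and not at the gene's outer end. The match is a description, and the motifs were chosen after the values of these genes were seen. The promoters printed were chosen by low interaction p among list members whose promoter holds TTTGAA. Those of Mki67 (chr7:135716330-135716629, minus strand, 2 matches) and Kif11 (chr19:37376132-37376431, plus strand, 1 match) are shown, with TTTGAA or its reverse complement in capitals.
Mki67: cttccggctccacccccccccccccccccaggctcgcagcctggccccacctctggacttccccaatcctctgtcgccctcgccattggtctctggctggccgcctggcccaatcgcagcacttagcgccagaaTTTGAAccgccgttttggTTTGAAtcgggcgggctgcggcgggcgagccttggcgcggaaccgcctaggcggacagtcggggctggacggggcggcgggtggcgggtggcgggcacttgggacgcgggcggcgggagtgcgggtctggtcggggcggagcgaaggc
Kif11: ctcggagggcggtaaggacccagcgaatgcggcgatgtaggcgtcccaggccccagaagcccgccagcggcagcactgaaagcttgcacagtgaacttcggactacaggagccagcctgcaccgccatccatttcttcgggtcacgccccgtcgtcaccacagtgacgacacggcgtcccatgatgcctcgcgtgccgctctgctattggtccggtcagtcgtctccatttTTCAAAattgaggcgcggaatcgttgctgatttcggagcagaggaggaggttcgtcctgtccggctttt

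Cytokine and NK receptor genes fell with the inhibitor mainly in IL-21, whereas the summed level of killing genes fell in both cytokines. Ifng, the effector cytokine interferon gamma, measured 0.507 and 0.281 RPKM in IL-21 + LDHi, 25.5 and 18.4 in IL-21, with 4.24 and 4.25 in IL-2 + LDHi and 3.35 and 4.36 in IL-2. The IL-21 libraries were the highest and the IL-21 + LDHi libraries the lowest, while the IL-2 pairs overlapped. Ifng fell by 5.82 ± 0.30 in IL-21, and its change in IL-2 was 0.10 ± 0.24 (adjusted p = 0.767), an interaction of -5.92 ± 0.38 (adjusted p = 1.64e-05). Of 18 cytokine and chemokine genes, 13 had a lower and 0 a higher interaction, among them Tnf (-3.51 ± 0.33) and the chemokine Ccl4 (-5.79 ± 0.54). Ccr2, the receptor for inflammatory chemokines, measured 1.25 and 1.04 RPKM in IL-21 + LDHi, 37.5 and 53.3 in IL-21, with 31.4 and 29.5 in IL-2 + LDHi and 30 and 24 in IL-2. Of 24 chemokine receptor and adhesion genes 14 had a lower and 1 a higher interaction. Without IL-2 replicate 2 the lower counts were 8 for cytokines and chemokines and 9 for chemokine receptors and adhesion.

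Gzma, the granule protease granzyme A, measured 5.64 and 4.47 RPKM in IL-21 + LDHi, 370 and 252 in IL-21, with 8.92 and 9.06 in IL-2 + LDHi and 8.39 and 3.83 in IL-2. Of these 4 groups it was high in IL-21 alone, and it fell by 5.96 ± 0.46 there (interaction -6.48 ± 0.58, adjusted p = 0.000122). Of 19 cytotoxic genes, 15 fell in IL-21, while 6 fell and 2 rose in IL-2, and 13 had a lower and 1 a higher interaction. The summed level of the list with the inhibitor was 32.9% of that in IL-21 and 42.8% of that in IL-2. Tnfsf10, the death ligand TRAIL, had an interaction of -1.70 ± 0.20. Tbx21, which encodes the effector factor T-bet, measured 0.87 and 1.35 RPKM in IL-21 + LDHi, 19 and 13.3 in IL-21, with 8.78 and 9.40 in IL-2 + LDHi and 12.8 and 14.1 in IL-2. Its interaction was -3.28 ± 0.34 (adjusted p = 0.000285). Of 16 effector transcription factors, 14 fell in IL-21 and 12 in IL-2. Among the 16, 3 had a higher and 6 a lower interaction (median -0.28), and limma on log2 RPKM gave 5 higher and 4 lower (median 0.20). Cish, a feedback inhibitor of STAT5 signalling, measured 0.321 and 0.48 RPKM in IL-21 + LDHi and 6.66 and 3.23 in IL-21, while IL-2 + LDHi (38.4 and 38.7) and IL-2 (44 and 38.2) overlapped (interaction -3.49 ± 0.36).

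Of 17 NK and killer lectin receptor genes, 16 fell with the inhibitor in IL-21, 7 rose and 1 fell in IL-2, and 16 had a lower and 0 a higher interaction (median -4.64). Klrc1, the inhibitory receptor NKG2A, measured 0.658 and 0.533 RPKM in IL-21 + LDHi, 24.6 and 30.3 in IL-21, with 15.4 and 13.1 in IL-2 + LDHi and 14.1 and 17.5 in IL-2. Klrk1, the activating receptor NKG2D, fell by 5.51 ± 0.18 in IL-21 and fell by 1.43 ± 0.14 in IL-2. Activated CD8+ T cells express several of these receptors themselves, and the list does not separate them from NK cells.

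The same direction of change was shown by markers of cells other than T cells. The summed level of 13 neutrophil, basophil and mast cell markers was 2.45 to 3.54 RPKM in IL-21 + LDHi, 119 to 160 in IL-21, 4.59 to 4.70 in IL-2 + LDHi and 7.22 to 7.8 in IL-2, against 362 to 736 without cytokine. Of the 13, 8 had a lower and 0 a higher interaction, but 4 to 5 did without any 1 library of IL-21 + LDHi, IL-2 + LDHi or IL-2. Each of the 13 had reads in some library. Mpo, the peroxidase of neutrophil granules, measured 0.064 and 0.133 RPKM in IL-21 + LDHi, 6.55 and 10.5 in IL-21, with 0.0875 and 0.196 in IL-2 + LDHi and 0.0632 and 0.0568 in IL-2. Itgax, the dendritic cell integrin CD11c that activated CD8+ T cells also express, had an interaction of -7.13 ± 0.42. Erythroid and platelet markers summed to 19.9 to 21 RPKM in IL-21 + LDHi, 258 to 277 in IL-21, 14.5 to 15.3 in IL-2 + LDHi and 10.4 to 12.8 in IL-2, against 437 to 673 without cytokine. Of 9 B cell markers tested, 0 had a called interaction. The libraries without cytokine were the highest of the 5 groups for 51.3% of the 759 genes that fell in IL-21 only. That share was 21.5% over all genes tested and 41.9% over the 542 genes that rose in IL-2 only. The part of these cells in the fall of cytokine, granule and receptor genes was not tested.

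Genes that rose with the inhibitor in IL-21 and not in IL-2 included single genes of homing, survival and feedback. Ccr7, the receptor that guides T cells into lymph nodes, measured 334 and 324 RPKM in IL-21 + LDHi, 141 and 72.4 in IL-21, with 125 and 132 in IL-2 + LDHi and 127 and 114 in IL-2. Both IL-21 + LDHi libraries were above the other 6, and the IL-2 pairs overlapped. Ccr7 rose by 1.63 ± 0.22 in IL-21, with a change of 0.05 ± 0.22 in IL-2 (interaction 1.58 ± 0.31, adjusted p = 0.00672). Bcl2, the survival factor, measured 28.8 and 30.7 RPKM in IL-21 + LDHi, 7.56 and 7.97 in IL-21, with 55.4 and 63.8 in IL-2 + LDHi and 55.2 and 54 in IL-2. It rose by 1.89 ± 0.17 in IL-21 and remained below the IL-2 groups (interaction 1.80 ± 0.23, adjusted p = 0.000852). The BCL2 family as a whole did not share this rise. Of its 15 genes tested, 1 rose and 6 fell in IL-21, 1 rose and 5 fell in IL-2, and 3 had a higher and 5 a lower interaction.

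Spry1, an inhibitor of receptor tyrosine kinase signalling, rose by 2.02 ± 0.18 in IL-21 (interaction 2.34 ± 0.25), and Slc30a4, a zinc transporter, by 2.12 ± 0.26 (2.28 ± 0.35). Odc1, the first enzyme of polyamine synthesis, measured 114 and 131 RPKM in IL-21 + LDHi, 79.3 and 47.4 in IL-21, with 58.9 and 60.2 in IL-2 + LDHi and 63.4 and 62.3 in IL-2. Ifngr2, a chain of the interferon gamma receptor, measured 11.2 and 11.9 RPKM in IL-21 + LDHi, 4.44 and 4.61 in IL-21, with 11 and 11.2 in IL-2 + LDHi and 11.7 and 10.2 in IL-2. Ifngr2 was thus low in the IL-21 pair alone. Moxd1, a copper monooxygenase, measured 36.6 and 32 RPKM in IL-21 + LDHi and 3.01 and 2.09 in IL-21, and had 0 reads in IL-2 + LDHi and 2 in IL-2, so no fold is given for IL-2.

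**Figure D3:**
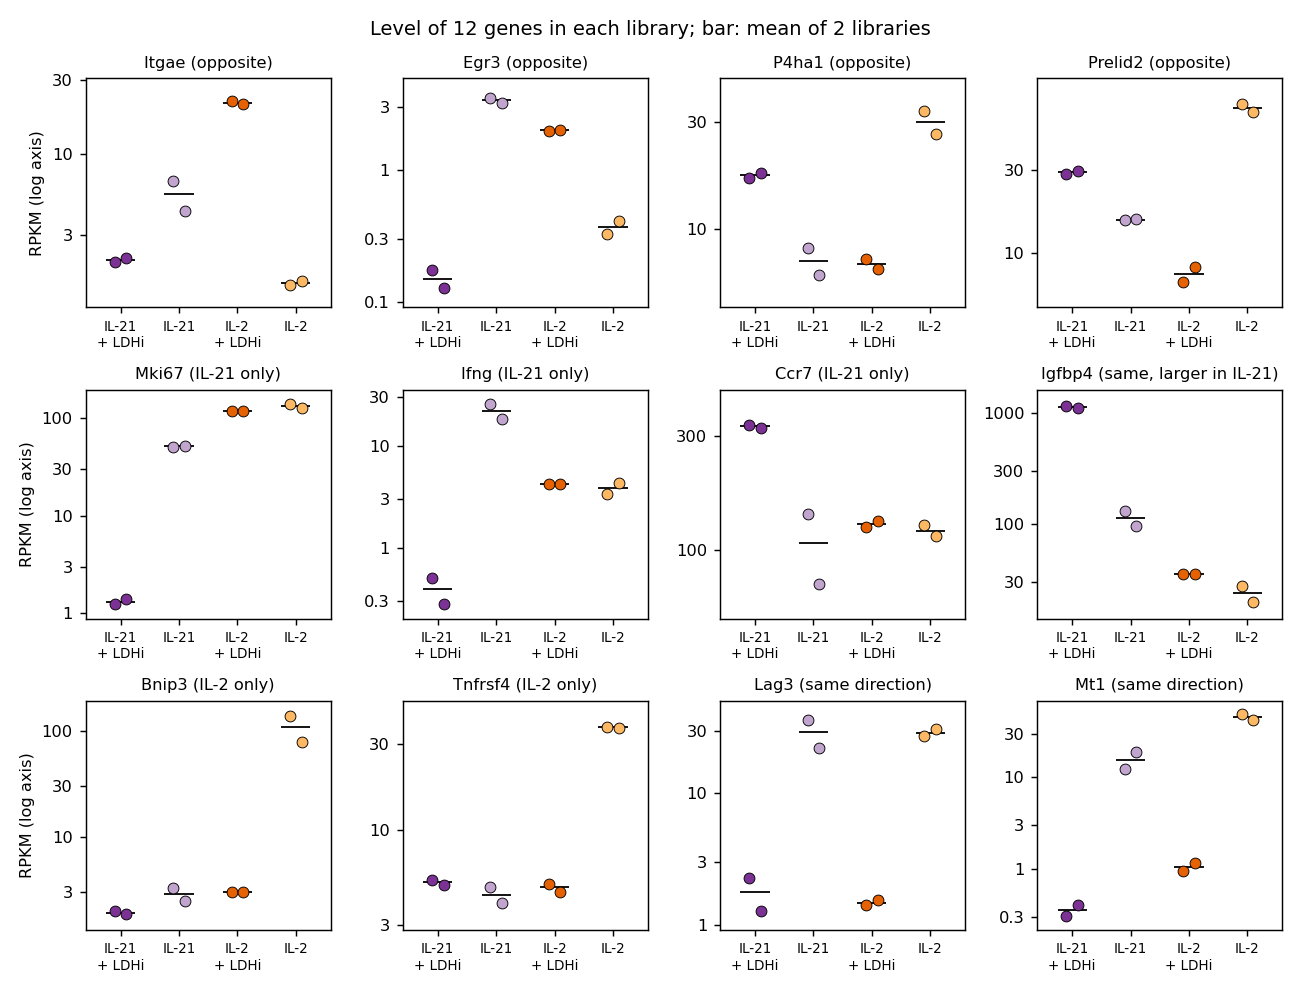
RPKM (log axis) of 12 genes in each of the 8 libraries of the comparison, with a bar at the mean of the 2 libraries of a group. Itgae and Egr3 fall with the inhibitor in IL-21 and rise in IL-2, P4ha1 and Prelid2 do the reverse, Mki67, Ifng and Ccr7 differ mainly within the IL-21 pair, Bnip3 and Tnfrsf4 within the IL-2 pair, and Lag3 and Mt1 fall in both.

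Genes of glycolysis, HIF-1, sterol synthesis and the stress factor ATF4 fell in IL-2 and not, or less, in IL-21. Of 27 genes of glycolysis and lactate metabolism, 23 fell in IL-2 and 13 in IL-21, and 21 had a higher and 0 a lower interaction (medians of -0.53 in IL-21, -1.85 in IL-2 and 1.29 for the interaction). The summed level was 1240 ± 18.3 RPKM in IL-21 + LDHi, 1870 ± 523 in IL-21, 2310 ± 80.3 in IL-2 + LDHi and 10400 ± 622 in IL-2 (SD, n = 2 each). With the inhibitor, 66.2% was left in IL-21 and 22.1% in IL-2. Aldoa, the main aldolase, averaged 127 ± 1.51 RPKM in IL-21 + LDHi, 163 ± 60.9 in IL-21, 200 ± 1.56 in IL-2 + LDHi and 1630 ± 49.7 in IL-2 (SD, n = 2 each). Aldoa was high in IL-2 alone and fell by 3.06 ± 0.16 there, with a change of -0.37 ± 0.15 in IL-21 that was not called (adjusted p = 0.0968). Ldha, the gene of the muscle-type subunit of the inhibited enzyme, fell by 0.70 ± 0.17 in IL-21 and fell by 1.85 ± 0.17 in IL-2 (interaction 1.15 ± 0.24, adjusted p = 0.00861). Pkm, pyruvate kinase, had an interaction of 1.41 ± 0.16 and Tpi1, triosephosphate isomerase, one of 1.80 ± 0.21.

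Of 24 HIF-1 targets outside glycolysis, 23 fell in IL-2 and 10 in IL-21, and 16 had a higher and 0 a lower interaction (median 2.2). Their summed level with the inhibitor was 91.0% of that in IL-21 and 20.7% of that in IL-2, where it was 1020 ± 293 RPKM (SD, n = 2). Bnip3, a mitophagy receptor (chromosome 7, 138890836 to 138909506), measured 1.97 and 1.85 RPKM in IL-21 + LDHi, 3.27 and 2.46 in IL-21, with 2.99 and 2.98 in IL-2 + LDHi and 139 and 78.8 in IL-2. Of these 4 groups only IL-2 stood above 3.27 RPKM, and Bnip3 fell by 5.23 ± 0.27 there (interaction 4.63 ± 0.36, adjusted p = 5.28e-05). Fam162a, a mitochondrial protein induced in hypoxia, had an interaction of 2.55 ± 0.27, and Ak4, a mitochondrial adenylate kinase, one of 6.02 ± 0.84. ACGTG, the core letters of the hypoxia response element, was found on either strand in 13 of 19 HIF-1 target promoters (68.4%), in 11 of 26 glycolysis promoters (42.3%) and in 25.3% of all promoters. The promoters printed were chosen by low interaction p among HIF-1 targets whose promoter holds ACGTG. Those of P4ha1 (chr10:59323046-59323345, plus strand, 1 match) and Bnip3 (chr7:138909457-138909756, minus strand, 2 overlapping matches on opposite strands) are shown, with the motif or its reverse complement in capitals.
P4ha1: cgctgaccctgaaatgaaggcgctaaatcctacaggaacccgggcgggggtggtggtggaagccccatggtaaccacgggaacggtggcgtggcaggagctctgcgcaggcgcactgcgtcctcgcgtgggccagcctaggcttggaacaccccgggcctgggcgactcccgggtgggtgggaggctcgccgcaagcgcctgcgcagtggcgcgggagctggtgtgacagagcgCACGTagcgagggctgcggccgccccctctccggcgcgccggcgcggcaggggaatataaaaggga
Bnip3: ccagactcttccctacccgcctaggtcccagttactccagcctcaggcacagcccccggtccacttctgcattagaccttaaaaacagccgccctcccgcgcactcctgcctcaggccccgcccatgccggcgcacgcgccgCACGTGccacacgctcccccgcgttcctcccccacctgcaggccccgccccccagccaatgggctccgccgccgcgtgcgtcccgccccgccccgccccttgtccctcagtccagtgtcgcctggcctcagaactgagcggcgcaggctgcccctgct

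Of 22 cholesterol synthesis genes, 21 fell in IL-2 and 12 in IL-21, and 16 had a higher and 0 a lower interaction (median 1.19). Mvd, mevalonate decarboxylase, measured 5.64 and 5.99 RPKM in IL-21 + LDHi, 6.13 and 4.01 in IL-21, with 6.41 and 7.5 in IL-2 + LDHi and 28.2 and 33.3 in IL-2, an interaction of 2.37 ± 0.21 (adjusted p = 0.000104). Insig1, a sterol sensor and target of the factor SREBP, had an interaction of 1.41 ± 0.14. Of 14 fatty acid synthesis genes 8 had a higher and 1 a lower interaction, with Scd2, a desaturase that fell by 3.71 ± 0.16 in IL-21 and fell by 4.96 ± 0.17 in IL-2. Of 32 genes of the ATF4 stress response 15 had a higher and 0 a lower interaction. Without IL-21 + LDHi replicate 2 the count was 9 for ATF4, and without IL-2 replicate 1 it was 4 for fatty acid synthesis. Atf4 itself measured 44 and 44.8 RPKM in IL-21 + LDHi, 50.1 and 42.2 in IL-21, with 56.7 and 53.7 in IL-2 + LDHi and 137 and 154 in IL-2, so that IL-2 without the inhibitor stood apart from the other groups.

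Single genes of other kinds fell in IL-2 and not in IL-21, among them 2 of the 16 costimulatory receptors tested. Of those 16, 9 fell in IL-21 and 7 in IL-2, and 3 had a higher and 6 a lower interaction, so the list as a whole did not share this pattern. Tnfrsf4, the receptor OX40, measured 5.33 and 5.01 RPKM in IL-21 + LDHi, 4.87 and 3.97 in IL-21, with 5.10 and 4.60 in IL-2 + LDHi and 37.1 and 36.9 in IL-2. It was high in IL-2 alone and fell by 2.97 ± 0.14 there (interaction 3.17 ± 0.20, adjusted p = 1.45e-05). Tnfrsf18, the receptor GITR, had an interaction of 2.17 ± 0.29. Pim2, a kinase induced by cytokine signals, measured 183 and 182 RPKM in IL-21 + LDHi, 167 and 111 in IL-21, with 53.2 and 57.9 in IL-2 + LDHi and 147 and 181 in IL-2, and had an interaction of 1.99 ± 0.23. Here the IL-2 + LDHi pair was low and the other 3 groups were high. Myc, a transcription factor that drives ribosome production and growth, measured 48.6 and 50.1 RPKM in IL-21 + LDHi, 44 and 49.4 in IL-21, with 46.4 and 46.5 in IL-2 + LDHi and 89.9 and 85.2 in IL-2. It fell by 0.96 ± 0.15 in IL-2 (interaction 0.98 ± 0.20, adjusted p = 0.00922), and Npm1, nucleophosmin, had an interaction of 1.23 ± 0.25. Of the 26 MYC and ribosome biogenesis genes as a whole, 3 had a higher and 3 a lower interaction, and 5 and 5 without either IL-21 library. Runx3, a factor of the CD8 lineage, had an interaction of 1.21 ± 0.22.

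Genes that rose in IL-2 alone included homing receptors and a quiescence factor. Ccr9, the gut-homing chemokine receptor, measured 14.2 and 10.6 RPKM in IL-21 + LDHi, 8.94 and 8.24 in IL-21, with 17.3 and 14.8 in IL-2 + LDHi and 1.38 and 1.72 in IL-2. It rose by 3.33 ± 0.21 in IL-2, where it had been lowest, with a change of 0.49 ± 0.19 in IL-21 (interaction -2.84 ± 0.27, adjusted p = 0.000183). Foxo1, a factor of naive and memory cells, measured 38.2 and 36.5 RPKM in IL-21 + LDHi, 38.2 and 35.9 in IL-21, with 40.2 and 41 in IL-2 + LDHi and 22.1 and 21.3 in IL-2. Prf1, which encodes perforin, measured 28.6 and 30.9 RPKM in IL-21 + LDHi, 33.4 and 28.9 in IL-21, with 12 and 13 in IL-2 + LDHi and 7.31 and 7.30 in IL-2. Both thus rose only in IL-2, Foxo1 by 0.86 ± 0.11 and Prf1 by 0.74 ± 0.11 (interactions of -0.89 ± 0.16 and -0.83 ± 0.15). Apol7e had an interaction of -2.42 ± 0.17 and Fcgrt, the neonatal Fc receptor, one of -2.48 ± 0.47. Of 26 stem, memory and naive genes 13 rose in IL-2 and 8 in IL-21, and 4 had a higher and 12 a lower interaction (median -0.74). The lower count was 7 without either IL-2 library or IL-21 + LDHi replicate 2. Tcf7, which encodes TCF-1, averaged 583 ± 15.1 RPKM in IL-21 + LDHi, 581 ± 97.1 in IL-21, 309 ± 2.26 in IL-2 + LDHi and 199 ± 19.2 in IL-2 (SD, n = 2 each). Its rise of 0.60 ± 0.16 in IL-2 was called and its interaction of -0.62 ± 0.22 was not (adjusted p = 0.0818).

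**Figure D4:**
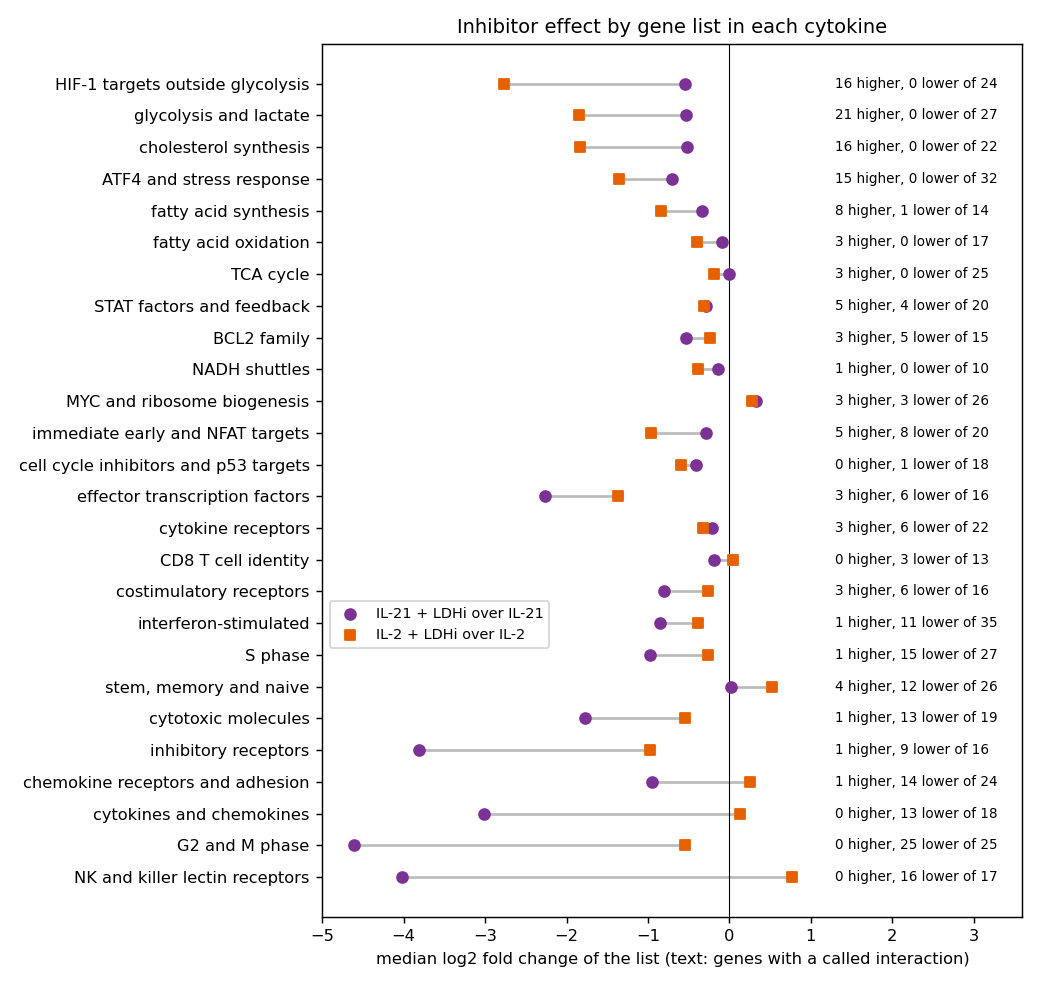
Median log2 fold change of each gene list drawn, for IL-21 + LDHi over IL-21 (circles) and for IL-2 + LDHi over IL-2 (squares), with the number of members whose interaction was called. Lists of markers of CD4 and regulatory T, B, myeloid, erythroid and platelet cells are not drawn. Lists of division, NK receptors and cytokines lie lower in IL-21 (medians -4.61, -4.02 and -3.01), and HIF-1 targets, glycolysis and cholesterol synthesis lie lower in IL-2 (-2.77, -1.85 and -1.84).

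**Figure D5:**
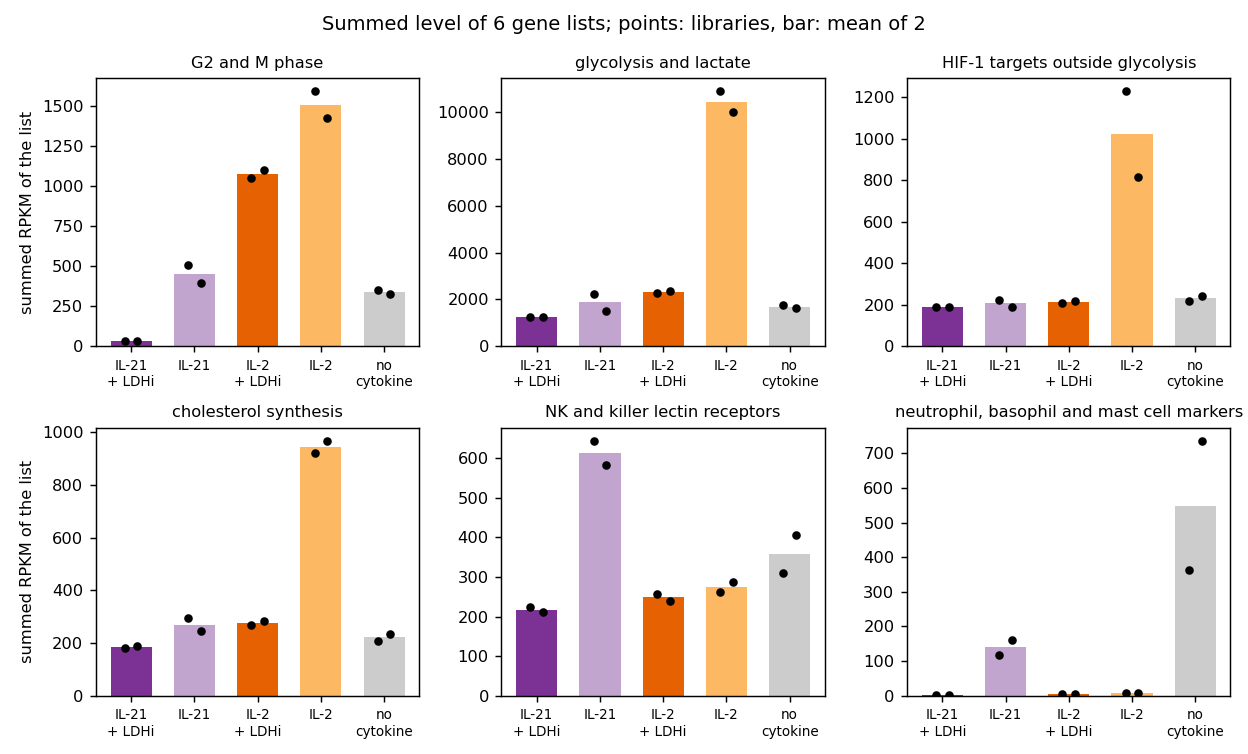
Summed RPKM of 6 gene lists, with 1 point per library and a bar at the mean of 2 libraries; the last bar is cells without cytokine. Glycolysis, HIF-1 and cholesterol sums are high in IL-2 alone, and G2 and M genes are near 0 in IL-21 + LDHi (31.3 RPKM).

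Among genes that moved the same way in both cytokines, 509 changed by unequal amounts, 293 more in IL-21 and 216 more in IL-2. Igfbp4, which binds insulin-like growth factors, measured 1150 and 1100 RPKM in IL-21 + LDHi, 131 and 96.3 in IL-21, with 35.0 and 35.2 in IL-2 + LDHi and 27.5 and 19.6 in IL-2. It rose by 3.28 ± 0.18 in IL-21 and by 0.53 ± 0.17 in IL-2 (interaction 2.75 ± 0.24, adjusted p = 0.000102), and IL-21 + LDHi held by far the most. Ampd1, an AMP deaminase, rose by 3.50 ± 0.21 in IL-21 and by 1.09 ± 0.21 in IL-2. Il6ra, the alpha chain of the IL-6 receptor, measured 64 and 65.3 RPKM in IL-21 + LDHi, 20.3 and 22.5 in IL-21, with 23.6 and 24.3 in IL-2 + LDHi and 0.843 and 1.27 in IL-2. Its rise was 1.54 ± 0.19 in IL-21 and 4.46 ± 0.22 in IL-2 (interaction -2.91 ± 0.28), although in RPKM the rise in IL-21 was the larger, by 20.4. Vipr1, a receptor for vasoactive intestinal peptide, rose by 0.86 ± 0.19 in IL-21 and by 3.79 ± 0.22 in IL-2.

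Gzmb, granzyme B, measured 2.22 and 1.65 RPKM in IL-21 + LDHi, 672 and 692 in IL-21, with 83.4 and 92.8 in IL-2 + LDHi and 1150 and 1030 in IL-2. It fell by 8.51 ± 0.33 in IL-21 and fell by 3.67 ± 0.26 in IL-2 (interaction -4.84 ± 0.36, adjusted p = 4.01e-05). In RPKM the drop in IL-2 was the larger, by 320. Lgals1, galectin-1, measured 4.02 and 4.34 RPKM in IL-21 + LDHi, 383 and 293 in IL-21, with 317 and 352 in IL-2 + LDHi and 551 and 518 in IL-2, so that 1 group alone was low (interaction -5.64 ± 0.24). Cd44, an adhesion receptor of activated cells, fell by 3.38 ± 0.14 in IL-21 and fell by 0.92 ± 0.12 in IL-2. Of 16 inhibitory receptors 9 had a lower and 1 a higher interaction (median -1.35), but limma on log2 RPKM gave 4 lower and 2 higher (median -0.35). Their summed level with the inhibitor was 49.2% of that in IL-21 and 29.3% of that in IL-2, so in RPKM the sum fell more in IL-2, by 124, and for 4 members with a called interaction the sign differed between the scales. Havcr2, the receptor TIM-3, fell by 5.28 ± 0.33 in IL-21 and fell by 2.44 ± 0.28 in IL-2. Pdcd1, the receptor PD-1, fell by 3.82 ± 0.28 in IL-21 and fell by 1.92 ± 0.25 in IL-2. On the other side, Aldoc, an aldolase, measured 0.527 and 0.34 RPKM in IL-21 + LDHi, 2.03 and 1.35 in IL-21, with 1.01 and 0.842 in IL-2 + LDHi and 91.3 and 88 in IL-2, and had an interaction of 4.64 ± 0.37 (adjusted p = 6.32e-05).

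For 1626 of the 2135 genes the interaction was not called, which does not show that the effects were equal. Mt1, a metallothionein that binds zinc and copper, measured 0.301 and 0.405 RPKM in IL-21 + LDHi, 12.3 and 18.7 in IL-21, with 0.939 and 1.15 in IL-2 + LDHi and 49.1 and 42 in IL-2. It fell by 5.51 ± 0.39 in IL-21 and fell by 5.49 ± 0.36 in IL-2 (interaction -0.02 ± 0.36, adjusted p = 0.979). Lag3, an inhibitory receptor, measured 2.29 and 1.29 RPKM in IL-21 + LDHi, 36.2 and 22.3 in IL-21, with 1.41 and 1.55 in IL-2 + LDHi and 27.1 and 30.8 in IL-2. It was low in both groups with the inhibitor, and its interaction was 0.29 ± 0.43 (adjusted p = 0.682). Hk2, the hexokinase of the first step of glycolysis, fell by 2.69 ± 0.33 in IL-21 and fell by 2.86 ± 0.31 in IL-2. Ggt1, gamma-glutamyltransferase, rose by 1.98 ± 0.16 and 1.92 ± 0.18 in these pairs at very different levels, with 100 and 102 RPKM in IL-21 + LDHi, 30.4 and 20.6 in IL-21, with 4.12 and 3.99 in IL-2 + LDHi and 1.10 and 0.984 in IL-2. Timp2, an inhibitor of matrix proteases, rose by 2.64 ± 0.13 and 2.11 ± 0.13, and Socs3, a feedback inhibitor of STAT3 signalling, by 0.52 ± 0.15 and 0.69 ± 0.15.

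The counts for oxidative metabolism are small and stand beside shares of 7.98% higher and 13.8% lower over all genes. Of 25 TCA cycle genes 3 had a higher and 0 a lower interaction, of 17 fatty acid oxidation genes 3 and 0, and of 10 genes of the NADH shuttles 1 and 0. Without IL-21 replicate 1 the higher counts were 9, 9 and 4, and for fatty acid oxidation the count was 0 without any 1 library of IL-21 + LDHi, IL-2 + LDHi or IL-2. Of 18 cell cycle inhibitors and p53 targets 0 had a higher and 1 a lower interaction, that of Cdkn2c, a cyclin-dependent kinase inhibitor (-2.47 ± 0.37). Of 20 STAT factors and feedback genes 5 had a higher and 4 a lower interaction, and of 35 interferon-stimulated genes 1 and 11. Without IL-21 replicate 1 the inhibitors and p53 targets had 5 higher and 3 lower, and the interferon list had 17 lower, against 3 without IL-2 replicate 1.

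Seen as the gap between cytokines, levels in IL-21 and IL-2 were closer at the median with the inhibitor than without it. The median absolute gap between IL-21 and IL-2 was 0.37 with the inhibitor and 0.57 without it over all genes, and 0.64 and 1.15 over the 3122 genes with a called interaction. The gap without the inhibitor includes the IL-21 pair, whose libraries differed most. Of those 3122, the gap was narrower with the inhibitor in 933 (29.9%), wider in 612 (19.6%) and turned round in 1577 (50.5%), with both gaps called in 333 of these 1577. Over all genes tested the shares were 43.8% narrower, 25.1% wider and 31.1% turned round. The interaction is the change in this gap, so the 3122 genes were chosen by it and their split is a description. By class, the gap widened for 224 of the 404 genes that fell in both cytokines by unequal amounts (55.4%) and narrowed for 83 of the 105 that rose in both by unequal amounts (79.0%). Among the 3122 genes the gap was called for 1521 with and 2528 without the inhibitor.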

How the data were processed

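RNA was measured in 10 libraries of mouse CD8+ T cells in 5 groups of 2. Per the file headers and values, the deposited tables hold for each library the authors' read counts per RefSeq transcript and RPKM, which the authors derived from the counts by transcript length and library total. Per the submitters' processing notes, the build was mm10 and the tools TopHat2 2.2.1, Bowtie2 2.2.6, SAMtools 0.1.8, bedtools 2.25.0 and edgeR. Whether the counting used strand is not given, so overlapping antisense genes cannot be told apart, and a read on several transcripts of a gene may have been counted in each. The tables list 31682 transcripts of 23992 symbols, and each symbol was represented by its transcript of highest total count (27137186 to 46656186 kept reads per library; lowest in IL-21 replicate 2, with 59.9% of its total).

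The deposited counts went into edgeR 4.0.16 (R 4.3.3). Low genes were removed by filterByExpr at a count of 10 and a total of 15, libraries were scaled by TMM, and group means over all 10 libraries were fitted by robust quasi-likelihood, with one estimate of the spread. The contrasts were IL-21 + LDHi against IL-21, IL-2 + LDHi against IL-2, and their difference. Tests were two-sided, with Benjamini-Hochberg adjustment over 14357 genes. An SE is the absolute log2 fold change over the root of its F statistic. The fit was also run on simulated counts, with the same spread in all groups and changes in IL-21 + LDHi only. That run does not cover a pair as variable as that of IL-21, and no result here rests on it. Genes with 3 reads or fewer in a group get no fold change in the text there. Sums of RPKM and figures were made in Python 3.11.15 (numpy 2.4.6, pandas 2.3.3, matplotlib 3.10.9). Of the genes tested, 10500 had a promoter in the RefSeq table.

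The comparison, its classes, the 31 gene lists and the genes named were chosen with earlier results of these data known. Genes are named by a rule: in each class the 4 with the largest interaction (called, at least 5 RPKM in the highest group, leaving out predicted genes and those of antigen receptors), the 4 largest shared changes in each direction, the 4 lowest p values of each list, and 17 fixed genes. The alternatives comprised library size alone, RLE size factors, DESeq2 1.42.0, no low-count filter, a filter of 5 RPKM in 2 libraries, limma 3.58.1 on log2(RPKM + 1), the 8 cytokine libraries alone, the replicate number as a block, an adjusted p below 0.01, the longest transcript, each library left out in turn, and the sign in RPKM. The counts of the lists under these settings were added after seeing the data. One gene that the rule names is not reported here.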

Additional observations from a re-analysis of the deposited data

Results flagged for a closer look

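The inhibitor's effect differed between IL-21 and IL-2, by the interaction test of edgeR, for 3122 genes. The values below are the interactions (log2) of the genes with the largest differences in each class that had more than 3 reads in each of the 4 groups. 40 genes were called in these classes under the naming rule, of which 7 had fewer reads.

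Where the effects had opposite directions, the interaction was 5.91 for Neb, 5.04 for Rgag4, 4.55 for Acvrl1 and 4.04 for Prelid2, and -6.32 for S100a4, -6.21 for Lyz2, -6.06 for Klra6 and -6.02 for Klra19. Where the effect was called in IL-21 alone, it was 2.34 for Spry1, 2.28 for Slc30a4 and 1.80 for Bcl2, and -7.64 for Mpo and -7.13 for Itgax. Where it was called in IL-2 alone, it was 6.10 for Mgarp, 6.02 for Ak4 and 5.10 for Selenbp2, and -3.30 for H2-Aa, -2.84 for Ccr9, -2.48 for Fcgrt and -2.42 for Apol7e. Among genes that rose in both, it was 2.75 for Igfbp4, 2.41 for Ampd1, 1.31 for Ier5 and 1.12 for Nt5e, and -2.93 for Vipr1 and -2.91 for Il6ra. Among genes that fell in both, it was -6.29 for Cdkn3, -5.64 for Lgals1, -5.06 for Melk and -4.88 for Mcpt8, and 5.29 for Gpld1, 5.18 for Scd1 and 4.64 for Aldoc.

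Several of these calls were lost when 1 library was left out, which leaves 1 library in its group. For Gpld1 the interaction itself fell far below 5.29 in 1 such fit, while those of the other genes listed moved less. Without IL-21 + LDHi replicate 2 the interaction of Gpld1 was 0.28 (adjusted p = 0.846), and it also lost the call without IL-2 replicate 2 (5.21) and IL-2 + LDHi replicate 2 (5.04). Mgarp lost it without IL-2 replicate 1 (5.70), either IL-21 + LDHi library (5.15 and 6.69) or either IL-2 + LDHi library (6.08 and 6.12). H2-Aa lost it without either IL-2 library (-3.52 and -3.10) or IL-2 + LDHi replicate 2 (-3.23), Nt5e without IL-2 replicate 2 (0.94) or IL-2 + LDHi replicate 2 (1.09), and Mcpt8 without IL-2 + LDHi replicate 1 (-4.86). Mpo, Mcpt8, Lyz2 and Itgax are also markers of other cell types, whose summed levels stand beside the results. H2-Aa, an MHC class II gene of antigen-presenting cells, measured 16.1 and 3.49 RPKM in IL-21 + LDHi, 18.9 and 10.8 in IL-21, with 9.97 and 11.1 in IL-2 + LDHi and 1.81 and 1.37 in IL-2, against 43.4 and 55.2 without cytokine. The part of such cells in these results was not tested.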

How the results depend on the processing

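With 2 libraries a group, depth and replicate number limit small differences, and the counts depend on the settings. The interaction count was 3113 with RLE size factors, 3390 with library size alone, 3788 with DESeq2, 2929 without a low-count filter, 3134 with the longest transcript and 3223 in the 8 cytokine libraries. The share of higher calls was 36.7%, against 25.3% with library size alone, which moved the median interaction of all genes to -0.22, and 50.1% with limma on log2 RPKM (2415 calls). The filter of 5 RPKM, with fewer genes, gave 1984 interactions, 2563 inhibitor effects in IL-21 and 3651 in IL-2, 1343 genes of the same direction, 170 opposite and 522 in IL-21 only. Limma gave 1365 genes of the same direction and 169 opposite. An adjusted p below 0.01 gave 1588 interactions, 2568 and 3512 inhibitor effects, 1064 same, 125 opposite, 608 IL-21 only and 579 IL-2 only. Leaving out each library gave 1742 to 5201 interactions, 2453 to 6660 inhibitor effects in IL-21 and 3113 to 7326 in IL-2, 1207 to 2888 same, 165 to 783 opposite, 606 to 1815 IL-21 only and 521 to 1693 IL-2 only; the lone library of a group is then assumed to vary like the others. Of the 361 opposite genes, 342 were again opposite with DESeq2, 154 with limma and 125 at an adjusted p below 0.01. With the filter of 5 RPKM, which tests fewer genes, 151 were. Settings with 2 libraries in each group called 0 of the 361 in 1 direction in both cytokines. That 0 says little, since the 361 were chosen by called opposite signs in the same libraries. The replicate numbers do not pair the libraries (correlations of same-numbered deviations -0.147 to 0.112 among the 4 groups); with the replicate number as a block there were 3027 interactions, 2882 of them shared.

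In RPKM the difference of differences had the other sign for Bcl6 (-0.363), Cdkn3 (2.25), Ctla4 (146), Fasl (4.89), Gzmb (320), Ikzf2 (1.4), Il12rb1 (3.99), Il6ra (20.4), Kif11 (7.11), Lrrc6 (4.31), Mcm10 (0.31), Nr4a1 (0.296), Prdm1 (1.17), Socs2 (14.1), Syt6 (4.42) and Zbtb7b (3.27). Under limma the sign was the other for Lrrc6 (0.52), Prdm1 (0.13), Syt6 (0.68) and Drc1 (-1.71). For the other named genes with a called interaction the direction held under each alternative. Over 19 settings the lower count of cytotoxic genes was 8 to 14, of NK receptors 10 to 17 and of cytokines 8 to 14, and the higher count of glycolysis genes was 15 to 22, of HIF-1 targets 14 to 20 and of cholesterol genes 11 to 18.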
